A study of Mus musculus with 12 samples.

Results

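The genes described here are 9 markers that the fetal liver and liver tumors are known to share: Afp, Gpc3, Golm1, Ly6d, Igf2bp1, Igf2bp2, Igf2bp3, Lin28b and Sox4. They were taken by symbol, through the Entrez identifier of each gene, from a table of 26301 mouse genes, and all 9 were found. Of these, 7 passed the filter on low counts, as did 13882 genes in all, and Igf2bp1 and Lin28b did not.

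RNA was measured in 12 libraries of adult mouse liver tissue. The control group held 4 non-tumor livers of wild-type mice. The DKO group held 4 spontaneous liver tumors of mice with E2f7 and E2f8 deleted by Cre recombinase under the albumin promoter (Alb-Cre), and the TKO group held 4 spontaneous liver tumors of Alb-Cre mice with Rb1, E2f7 and E2f8 deleted. The authors describe the albumin promoter as specific to hepatocytes. Other cells of a tumor piece may therefore have kept these genes, which was not measured. The mice were ageing animals killed at humane end-points, and the exact ages at harvest are not in the labels. E2F7 and E2F8 are repressors of transcription in the E2F family, and RB1 binds and restrains the activating E2Fs. The comparisons ask how the tumors of each genotype differ from wild-type liver and from each other.

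Oncofetal genes are active in the fetal liver, are turned down around birth and can be expressed again in liver cancer. AFP is the major plasma protein of the fetus and a serum marker of hepatocellular carcinoma, while GPC3 is a cell surface proteoglycan used in its diagnosis. The LIN28 proteins block maturation of let-7 microRNAs, and the IGF2BP proteins bind, stabilize and localize mRNAs such as those of Igf2 and Myc. SOX4 is a transcription factor of progenitor cells.

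Total counts ranged from 9165812 to 16424973 per library. Values are given as CPM, the usual per-library rate of counts (scaled to 1e6 with edgeR's TMM factors). Albumin transcripts took 4.82% to 22.7% of all counts, so hepatocyte RNA was present in every library. Rb1 was between 3.21 and 5.47 CPM in the 4 TKO tumors, below the lowest of the other 8 libraries, at 6.52 CPM. E2f7 overlapped between the groups, at 0.542 to 1.11 CPM in controls and 0.236 to 1.84 CPM in tumors, and E2f8 was at 4.52 to 8.97 and 7.59 to 52.2 CPM. Counts over whole genes do not check the deletion of single exons. Ddx3y, on the Y chromosome, was at 47.9 to 81.2 CPM in all 12 libraries. In 4 libraries, control 2, control 4, TKO 2 and TKO 3, Igf2 was between 25.5 and 57.9 CPM, against 0.301 to 5.85 CPM in the other 8. The same 4 had Krt14 at 0.0767 to 0.293 CPM, against 2.69 to 5.52 CPM, and Epcam at 0.426 to 1.68 CPM, against 6.15 to 13.8 CPM. This split was seen in the values and is not in the labels, and 486 of 13882 genes (3.5%) did not overlap across it. No DKO tumor was among the 4 libraries, and results that depend on them are given with and without them.

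AFP is encoded next to albumin. In the mm9 genome Afp (Entrez 11576) lies at chr5:90919740-90937933 on the plus strand, 14110 bases beyond the end of Alb. The sequence upstream of its start is shown because Afp had the largest change in the DKO tumors among the 7 tested markers. It is the 250 bases before the annotated start in RefSeq, at chr5:90490464-90490713 of GRCm38.p6 on the plus strand. Capitals mark TATAAA, the core letters of a TATA box, and GTTAAT or GTTAAC, half-sites of the HNF1 hepatocyte factors, searched on both strands:
Afp upstream: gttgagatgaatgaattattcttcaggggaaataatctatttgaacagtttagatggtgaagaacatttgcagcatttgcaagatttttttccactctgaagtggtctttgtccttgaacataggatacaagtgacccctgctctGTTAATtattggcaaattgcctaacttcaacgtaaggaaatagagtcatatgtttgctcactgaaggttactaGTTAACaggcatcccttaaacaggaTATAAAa
Promoter windows running from 250 bases before to 50 bases after the start were given in RefSeq for 7 of the 9 markers, with Ly6d and Igf2bp1 not among them. TATAAA was found in the windows of Afp and Golm1 and in 13.6% of all 32851 windows. GTTAAT or GTTAAC was found in Afp alone of the 7 and in 9.85% of all windows. The letters TTTCCCGC, TTTGGCGC, TTTCGCGC and TTTGCCGC, searched as E2F sites, were in none of the 7 marker windows and in 2.26% of all windows, which says only that these letters are not there.

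Afp was higher in the DKO tumors than in the control livers, and was the 1 marker of 7 that passed the edgeR test there. In the control livers it was at 2.37, 3.81, 2.44 and 4.61 CPM in replicates 1 to 4. In the DKO tumors it was at 29.7, 29.7, 5.91 and 104 CPM. The groups did not overlap, and the DKO tumors differed among themselves by more than the controls did. Counts behind these values were 31 to 63 per control library and 100 to 1757 per DKO library. The change was 3.68 on the log2 scale (SE 0.709, n = 4 and 4), or 12.8-fold, with an adjusted p of 0.0392 in edgeR's quasi-likelihood test. Among all genes, 2.42% passed this test in either direction and 1.41% passed as higher. DESeq2 gave the same change, 3.68, with an adjusted p of 4.33e-06.

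The call of Afp did not hold in 8 of the 12 fits that left out 1 library. Over these 12 fits the number of all genes called ran from 0 to 651, against 336 in the fit to all libraries. Without any one of control 1, 2, 3 or 4, DKO 1, 2 or 4, or TKO 1, the adjusted p of Afp was between 0.0519 and 0.134. Without DKO 4, the tumor with the highest level, the change was 2.72. Leaving out the 4 libraries with high Igf2 gave a change of 4.12 with an adjusted p of 0.210, and a term for them gave 3.91 with an adjusted p of 0.105. A covariate from sex-linked genes gave 3.73 with an adjusted p of 0.0820.

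In the TKO tumors Afp was at 3.80, 6.25, 1.69 and 4.03 CPM. TKO 2 was above every control, TKO 3 was below every control, and the other two lay inside the control range. The change against the controls was 0.26 on the log2 scale (SE 0.69, adjusted p 0.893). Set directly against the DKO tumors, which shares no control liver, the TKO tumors were lower in Afp by a log2 change of -3.42 (SE 0.693), which edgeR did not call (adjusted p 0.281) and DESeq2 did (-3.43, adjusted p 0.000179). TKO 2, at 6.25 CPM, was above DKO 3, at 5.91 CPM, and the other 3 TKO tumors were below every DKO tumor. edgeR called 0 of the 13882 genes in this comparison (0.00%), 1250 genes had an unadjusted p under 0.05, and DESeq2 called 56.

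**Figure D1:**
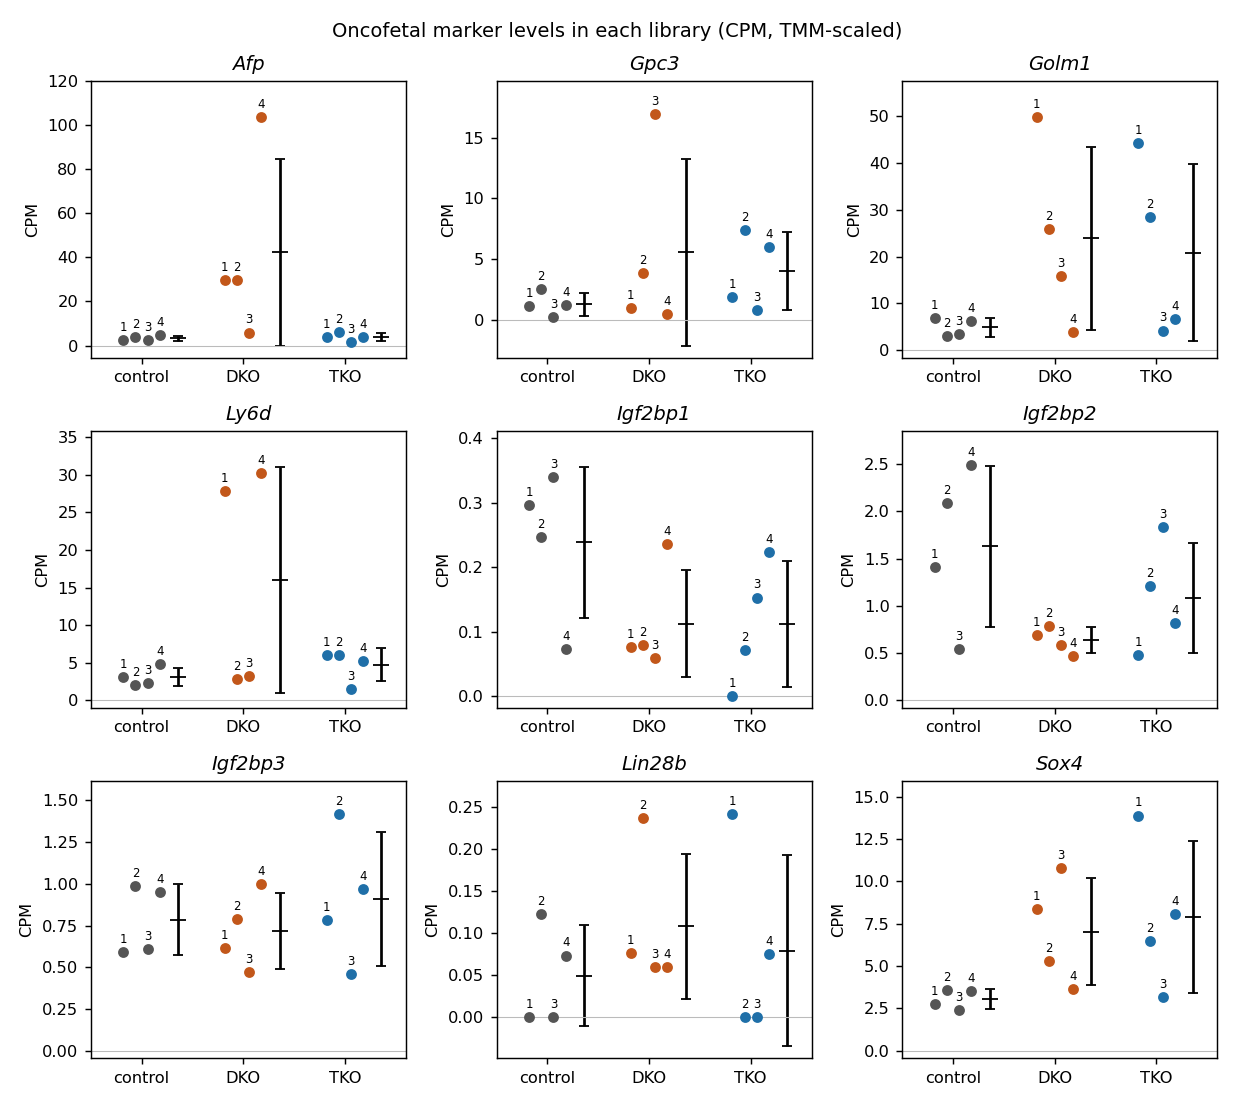
Level of each of the 9 markers in CPM (vertical axis, linear, from 0) in the 4 control livers, 4 DKO tumors and 4 TKO tumors (numbered points, the number being the replicate), with the mean and SD of each group as the horizontal mark and bars. Afp in the DKO tumors runs from 5.91 to 104 CPM above controls at 2.37 to 4.61 CPM, while Igf2bp1 and Lin28b are at most 0.339 and 0.241 CPM in any library.

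The other 3 genes of the albumin family are Alb, Afm (the vitamin E binding plasma protein afamin) and Gc (the vitamin D binding protein). Of these 0 were called in any of the 4 comparisons by edgeR or by DESeq2. At an unadjusted p under 0.05 were 0 in DKO (24.0% of all genes were) and 0 in TKO against control (16.3%). In DKO 1 and DKO 2 Alb was at 286000 and 202000 CPM and Afm at 567 and 420 CPM, above the control ranges of 62600 to 111000 and 172 to 249 CPM. In DKO 4, where Afp was highest, they were at 109000 and 203 CPM, inside those ranges. Their changes in the DKO tumors were 0.92 for Alb, 0.64 for Afm and 0.18 for Gc (edgeR adjusted p 0.490, 0.341 and 0.785). Zhx2 and Zbtb20, which repress Afp after birth, were at 38.0 to 46.2 and 28.1 to 40.0 CPM in the DKO tumors, against 24.5 to 33.7 and 22.7 to 36.4 CPM in the controls. Neither gene was called, with edgeR changes of 0.44 (adjusted p 0.135) and 0.18 (0.678).

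Among 14 regulators of Afp and genes known to depend on Zhx2, all tested, edgeR called 1 higher in the DKO tumors and 0 lower (2.42% of all genes were called in either direction), with a median log2 change of 0.21 against 0.02 over all genes. DESeq2 called 1 higher and 2 lower (9.95% of all genes were called in either direction). The gene called higher was Lpl, lipoprotein lipase, which liver makes in the fetus. Lpl was at 422, 422, 141 and 294 CPM in the DKO tumors and 225, 602, 123 and 129 CPM in the TKO tumors, against 23.5 to 47.1 CPM in the controls, so that all 8 tumors were above every control. Its changes were 3.26 in DKO (adjusted p 0.0292) and 3.01 in TKO (0.0643), and without the 4 libraries with high Igf2 they were 2.93 (0.180) and 2.08 (0.345). H19, a fetal noncoding RNA of the same list, was at 6.84 to 78.1 CPM in controls and 7.91 to 208 CPM in tumors, with changes of 0.62 in DKO and 1.73 in TKO (adjusted p 0.752 and 0.450). The genes that DESeq2 called lower were Elovl3, a fatty acid elongase, at -3.13 in DKO (edgeR adjusted p 0.0806, DESeq2 0.0147), and Cebpa, a transcription factor of mature hepatocytes, at -0.89 (0.0864 and 0.0274). All 4 DKO tumors were below every control in both, with Cebpa at 137 to 177 CPM against 201 to 354 CPM.

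Gpc3 (Entrez 14734, mm9 chrX:49625603-49967127, minus strand) was high in single tumors of both genotypes. In the control livers it was at 1.19, 2.58, 0.271 and 1.24 CPM. The DKO tumors had 0.997, 3.88, 16.9 and 0.531 CPM and the TKO tumors 1.87, 7.39, 0.844 and 6.04 CPM. DKO 2, DKO 3, TKO 2 and TKO 4 were above every control, and the other 4 tumors were inside the control range. The highest level was in DKO 3, the DKO tumor with the lowest Afp. The log2 changes were 2.14 (SE 1.03) in DKO and 1.67 (SE 1.03) in TKO, with adjusted p of 0.231 and 0.453, and the TKO minus DKO difference was -0.48 (SE 0.946). Without DKO 3 the DKO change was 0.48 (adjusted p 0.769) and the difference 1.18.

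Of 8 other glypicans and enzymes that trim their chains or anchors, 6 were tested and edgeR called 0 in each of the 4 comparisons. At an unadjusted p under 0.05 were 3 in DKO (24.0% of all genes were) and 1 in TKO (16.3%). DESeq2 called 2 higher in DKO, Gpc6 and Gpc4 (9.95% of all genes were called in either direction). Gpc6 was at 8.13, 8.94, 8.34 and 1.71 CPM in the DKO tumors against 1.48 to 2.93 CPM in the controls, a change of 1.81 (edgeR adjusted p 0.0573, DESeq2 0.00502). Gpc4, the gene beside Gpc3 on the X chromosome, was at 88.6 to 159 CPM against 76.4 to 84.5 CPM, a change of 0.57 (0.0875 and 0.0419). In DKO 3, where Gpc3 was highest, Gpc4 was at 88.6 CPM, the lowest of the DKO tumors. Sulf2, a sulfatase of heparan sulfate, had the smallest value of the list, -1.50 in DKO (edgeR adjusted p 0.124).

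Golm1 (Entrez 105348, mm9 chr13:59736357-59777145, minus strand) encodes GP73, a Golgi membrane protein shed into serum in liver disease. Controls were at 6.90, 2.95, 3.52 and 6.15 CPM. The DKO tumors were at 49.8, 25.9, 15.9 and 3.83 CPM, and the TKO tumors at 44.1, 28.4, 4.22 and 6.64 CPM. DKO 1, 2 and 3 and TKO 1 and 2 were above every control, and the other 3 tumors lay within the control range, so each genotype held tumors of both kinds. The changes were 2.27 in DKO (SE 0.8, adjusted p 0.115) and 2.08 in TKO (SE 0.796, adjusted p 0.228). DESeq2 called the DKO change (adjusted p 0.0246). Without the highest tumor of each genotype in turn, DKO 1 and TKO 1, the changes were 1.61 and 1.40. Its 4 relatives in the list, Golm2, Furin, Golph3 and Clu, were not called in any comparison by either tool. At an unadjusted p under 0.05 were 0 in DKO (24.0% of all genes were) and 0 in TKO against control (16.3%). Over both tumor groups 1 was, Golm2 (23.0%). Golm2, a related Golgi membrane gene, was at 1.23, 7.20, 3.19 and 0.590 CPM in DKO and 7.66, 1.42, 0.997 and 2.61 CPM in TKO, against 0.615 to 1.56 CPM in controls, and in DKO 1 Golm1 was at its highest while Golm2 was inside the control range.

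Ly6d (Entrez 17068, mm9 chr15:74592486-74593997, minus strand) encodes a GPI-anchored surface protein of the Ly6 family, known from squamous epithelium and early B lymphocytes. It was at 3.11, 2.09, 2.37 and 4.83 CPM in the controls. DKO 1 and DKO 4 were at 27.8 and 30.2 CPM, while DKO 2 and DKO 3 were at 2.85 and 3.31 CPM, inside the control range. The TKO tumors were at 6.09, 6.04, 1.46 and 5.30 CPM, of which 3 were just above the highest control and TKO 3 was below the lowest. The changes were 2.36 in DKO (SE 0.743, adjusted p 0.0884) and 0.60 in TKO (SE 0.734, adjusted p 0.738), and DESeq2 called the DKO change (adjusted p 0.0132). The TKO minus DKO difference was -1.76 (SE 0.718, adjusted p 0.542).

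The summed level of 6 B cell genes was 8.82 CPM in DKO 1 and 4.30 CPM in DKO 4, the tumors with high Ly6d, against 21.4 and 181 CPM in DKO 2 and DKO 3 and 8.61 to 74.3 CPM in controls. The sum of 5 squamous epithelium genes was 6.06 and 3.48 CPM in these tumors, against 3.08 and 4.85 CPM in DKO 2 and DKO 3 and 0.369 to 4.89 CPM in controls. In DKO 1 and DKO 4 most of the B cell sum was Ighm, at 6.9 and 3.42 CPM. Most of the squamous sum there was Krt14, at 5.52 and 3.3 CPM. Krt14 also differed across the libraries with high Igf2. In tissue pieces, fewer cells of a type and less RNA per cell cannot be told apart. Of 16 other Ly6 family genes 9 were tested, and edgeR called 0 in each comparison. At an unadjusted p under 0.05 were 2 in DKO (24.0% of all genes were) and 1 in TKO (16.3%). DESeq2 called 2 higher in DKO, Ly6c1 and Gpihbp1 (9.95% of all genes were called in either direction). Ly6c1, a surface gene of monocytes and endothelium, was at 14.1, 3.64, 2.78 and 20.6 CPM in the DKO tumors against 1.42 to 2.71 CPM in controls, a change of 2.19 (edgeR adjusted p 0.0890, DESeq2 0.0159). Gpihbp1, the endothelial anchor of lipoprotein lipase, was above every control in all 8 tumors, with edgeR changes of 1.04 in DKO and 0.99 in TKO (adjusted p 0.0871 and 0.181, DESeq2 0.0363 and 0.0920). Beside these, the summed level of 6 endothelial genes was 112 to 173 CPM in controls, 138 to 199 CPM in DKO and 152 to 286 CPM in TKO tumors. edgeR called 0 of the 6 in any comparison, and 2 had an unadjusted p under 0.05 in DKO (24.0% of all genes did). DESeq2 called Pecam1 and Lyve1 higher in DKO (9.95% of all genes were called in either direction). Pecam1 was at 30.1, 21.8, 27.2 and 69.5 CPM in the DKO tumors against 10.6 to 22.2 CPM in controls, a change of 1.24 (edgeR adjusted p 0.0693, DESeq2 0.0134). Lyve1 was at 3.30, 5.77, 28.6 and 0.943 CPM against 0.984 to 2.78 CPM, a change of 2.18 (0.119 and 0.0325). The list was split in DKO. Kdr and Cdh5 had changes of 0.19 and 0.65 (edgeR adjusted p 0.63 and 0.25). Stab2 and Clec4g were lower, at -0.42 and -0.82 (edgeR adjusted p 0.398 and 0.472). The part of the endothelial genes in the Ly6 family levels was not tested.

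The RNA-binding markers were low in all groups. Igf2bp2 (Entrez 319765, mm9 chr16:22059082-22163372, minus strand), the family member that adult tissues keep, was at 1.41, 2.09, 0.542 and 2.49 CPM in the controls. It was at 0.690, 0.791, 0.591 and 0.472 CPM in the DKO tumors and at 0.482, 1.21, 1.84 and 0.821 CPM in the TKO tumors, on 8 to 34 counts per library. Every DKO tumor was below 3 of the 4 controls, and control 3 overlapped them. The changes were -1.34 in DKO (SE 0.5, adjusted p 0.128) and -0.58 in TKO (adjusted p 0.592). Igf2bp2 also differed across the libraries with high Igf2, at 1.21 to 2.49 CPM in those 4 against 0.472 to 1.41 CPM in the other 8, and without those 4 the DKO change was -0.62 (adjusted p 0.596).

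Igf2bp3 (Entrez 140488, mm9 chr6:49035220-49164953, minus strand), a family member of embryos and tumors, was between 0.460 and 1.42 CPM in every library, on 6 to 20 counts. Its changes were -0.10 in DKO and 0.23 in TKO (adjusted p 0.901 and 0.827), and the 3 groups overlapped. Igf2bp1 (Entrez 140486, mm9 chr11:95818477-95867254, minus strand), the other oncofetal family member, had 12 counts over the 4 controls, 7 over the DKO tumors and 6 over the TKO tumors. Lin28b (Entrez 380669, mm9 chr10:45096426-45206201, minus strand) had 2, 6 and 5 counts over the same groups. Its highest counts were 4 in TKO 1 and 3 in DKO 2. A count of 0 allows up to 3 counts, or 0.177 to 0.369 CPM in these libraries, so changes of Lin28b and Igf2bp1 within that range were not detectable at this depth. Both were dropped by the filter on low counts and have no edgeR fold change here. DESeq2 gave DKO changes of 1.33 (SE 1.6) for Lin28b and -1.06 (SE 1.01) for Igf2bp1, with no adjusted p.

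Lin28b acts through let-7, microRNAs that these poly(A) libraries do not measure in their mature form. Their mature sequences in RefSeq are shown because LIN28 proteins act on this family, with the seed, bases 2 to 8, in capitals:
mmu-let-7a-5p: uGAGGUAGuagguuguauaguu
mmu-let-7d-5p: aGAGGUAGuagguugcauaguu
mmu-let-7g-5p: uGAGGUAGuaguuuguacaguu
mmu-miR-98-5p: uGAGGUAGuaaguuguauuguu
Of 11 mouse let-7 family names, 10 carry the seed GAGGUAG. Of 10 genes of let-7 processing 8 were tested, and 0 were called in any comparison by either tool, with 0 at an unadjusted p under 0.05 in DKO or TKO against control. Lin28a, the other LIN28 gene, was at most 0.158 CPM. The highest change of that list in DKO was 0.39 for Tut4, a uridylating enzyme of let-7 precursors (edgeR adjusted p 0.421), and the lowest was -0.43 for Dis3l2, the nuclease that degrades uridylated precursors (0.258). All 4 DKO tumors were below every control in Dis3l2, with means of 10.8 and 14.6 CPM. Of 16 known let-7 targets 15 were tested and edgeR called 0, with a median change of 0.19 in DKO and 0.09 in TKO. At an unadjusted p under 0.05 were 3 in DKO (24.0% of all genes were) and 2 in TKO (16.3%). Cdc25a, a phosphatase of the cell cycle, was at 8.81 to 13.0 CPM in DKO and 7.29 to 17.2 CPM in TKO, against 4.43 to 7.71 CPM in controls (0.74 and 0.92, edgeR adjusted p 0.111 and 0.146, DESeq2 0.0749 and 0.0463). Mycn, a fetal MYC family gene, was at 10.3 CPM in TKO 4 and 7.02 CPM in DKO 4, against 0.952 to 4.38 CPM in controls (1.09 in DKO and 0.90 in TKO, edgeR adjusted p 0.369 and 0.562).

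Among 10 transcripts known to be bound by IGF2BP proteins 9 were tested and edgeR called 0. At an unadjusted p under 0.05 were 1 in DKO (24.0% of all genes were) and 1 in TKO (16.3%). Igf2, the fetal growth factor, had a log2 value of -3.20 in DKO minus control (SE 1.57, adjusted p 0.240), which was 1.84 without the 4 libraries with high Igf2 (adjusted p 0.433). These 4 were set apart by Igf2 itself, so that shift follows from the choice of libraries. Control 2 and control 4 held the high values at 35.2 and 57.9 CPM, and control 1 and control 3, at 0.742 and 0.678 CPM, were inside the DKO range of 0.413 to 5.85 CPM. Myc was at 5.41 to 15.7 CPM in controls and 3.91 to 10.6 CPM in the tumors, with changes of -0.78 in DKO and -0.53 in TKO (adjusted p 0.253 and 0.535).

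Sox4 (Entrez 20677, mm9 chr13:29040788-29045582, minus strand) was above every control in more tumors than any other tested marker, 7 of 8. It was at 2.74, 3.57, 2.37 and 3.51 CPM in the controls. The DKO tumors were at 8.36, 5.30, 10.8 and 3.66 CPM and the TKO tumors at 13.9, 6.47, 3.14 and 8.06 CPM. The DKO tumors did not overlap with the controls, the nearest being DKO 4 at 3.66 CPM against control 2 at 3.57 CPM, and TKO 3 was inside the control range. The changes were 1.21 in DKO (SE 0.431, adjusted p 0.117), 1.38 in TKO (SE 0.431, adjusted p 0.166) and 1.30 over both tumor groups (SE 0.39, n = 8 and 4, adjusted p 0.0825). DESeq2 called the change over both groups (adjusted p 0.0172), and edgeR called it without TKO 3 (adjusted p 0.0296).

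Of 6 genes of the SOXC family and its partners 5 were tested. Ezh2, a histone methyltransferase of progenitor cells, was at 6.19 to 11.4 CPM in DKO and 5.75 to 11.6 CPM in TKO, against 3.95 to 4.82 CPM in controls. All 8 tumors were above every control, and the change over both groups was 0.94 (adjusted p 0.0491), or 1.00 without the 4 libraries with high Igf2 (0.211). Sox9, a biliary and progenitor factor, was at 20.2, 9.97, 9.46 and 2.30 CPM in DKO and 10.4, 18.9, 5.37 and 2.61 CPM in TKO, against 4.30 to 5.49 CPM in controls (1.06 and 0.90, adjusted p 0.308 and 0.491). Sox12, a SOXC relative of Sox4, had the smallest value in DKO, -1.33 (adjusted p 0.120).

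**Figure D2:**
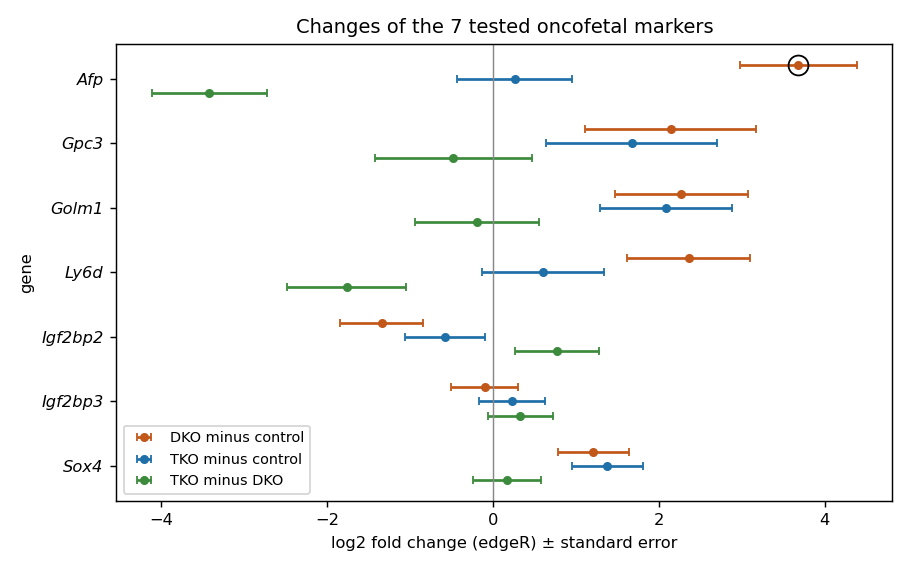
Log2 fold changes from edgeR (horizontal axis, points) with standard errors (bars) for the 7 tested markers in DKO minus control, TKO minus control and TKO minus DKO, 4 libraries a group. The open circle marks the 1 change past an adjusted p of 0.05, Afp in DKO at 3.68, and the widest bars belong to Gpc3.

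Counted over the markers, 1 of 7 was called in DKO against control (2.42% of all genes were), 0 of 7 in TKO against control (0.0864%), 0 of 7 in TKO against DKO (0.00%) and 0 of 7 over both tumor groups (2.48%). At an unadjusted p under 0.05 the DKO comparison held Afp, Golm1, Ly6d, Sox4 and Igf2bp2, 5 of 7, against 24.0% of all genes. The TKO comparison held Golm1 and Sox4, 2 of 7, against 16.3%. TKO against DKO held Afp and Ly6d, 2 of 7, against 1250 of all 13882 genes in either direction. These 2 markers were lower in TKO, as were 3.84% of all genes at this threshold. The comparison of both tumor groups held 5 of 7, against 23.0%. DESeq2 called 3 markers in DKO (9.95% of all genes), 0 in TKO (3.32%), 1 in TKO against DKO (0.398%) and 3 over both groups, Afp, Golm1 and Sox4 (9.49%). All DKO tumors were above every control in Afp and Sox4, 2 of 7, against 8.87% of all genes, and all TKO tumors were above every control in 0 of 7, against 4.38%. The 8 tumors together were above every control in 0 of 7, against 2.20%. The comparisons of DKO and TKO with the control livers share those 4 livers.

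The set of markers above every control differed from tumor to tumor. The share of all genes above every control in a single tumor was not counted, so these sets are a description. DKO 1 had Afp, Golm1, Ly6d and Sox4 above every control. DKO 2 and DKO 3 had Afp, Gpc3, Golm1 and Sox4, and DKO 4 had Afp, Ly6d, Igf2bp3 and Sox4. In DKO 4, Igf2bp3 was only just above the controls (17 counts against 8 to 13), as was Sox4 (3.66 against at most 3.57 CPM). In DKO 4 Afp was 4.96 above the control mean on the log2 scale and Golm1 was -0.25, while in DKO 3 Gpc3 was 3.83 above it and Afp 0.87. TKO 1 had Golm1, Ly6d and Sox4, and TKO 4 had Gpc3, Ly6d and Sox4. TKO 2 had 6 of the 7, all but Igf2bp2.

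No tested marker was above every control in TKO 3. The summed level of 6 proliferation genes was 12.9 CPM there, inside the control range of 8.24 to 19.9 CPM, while it was between 23.6 and 107 CPM in the other 7 tumors. Of these genes Mki67 was at 2.76 CPM in TKO 3, above the controls at 0.678 to 2 CPM. The rest were inside their control ranges there. Rb1 was at 4.91 CPM in TKO 3, below every control, and Lpl at 123 CPM, above every control. Other cell types also varied between tumors. DKO 4 had the lowest summed level of 6 macrophage genes, 60.4 CPM against 117 to 516 CPM in the other 11 libraries, with Clec4f, a Kupffer cell gene, at 5.84 CPM. Cd68, another macrophage gene of that list, went the other way. It was at 25.2 CPM in DKO 4, its highest level in any library, against 7.99 to 17.2 CPM in controls. The rest of the list was at its lowest in DKO 4. The part of these differences in the marker levels was not tested.

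**Figure D3:**
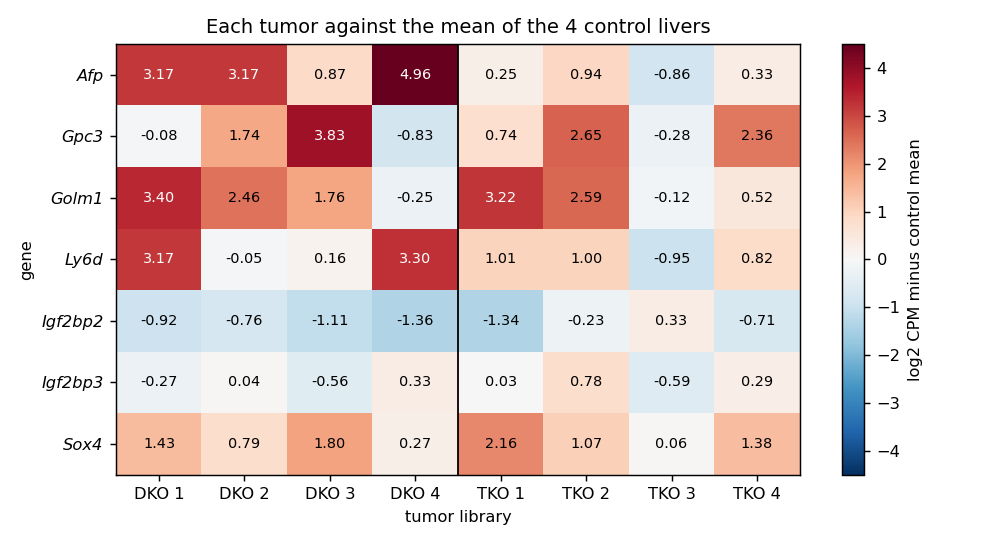
Log2 CPM of each of the 7 tested markers (vertical) in each of the 8 tumors (horizontal) minus the mean of the 4 control livers, with the value printed in each cell and red for higher, blue for lower. The Afp values in the 4 DKO tumors run from 0.87 to 4.96, the TKO 3 column is between -0.95 and 0.33, and Gpc3 and Golm1 are high in tumors of both genotypes.

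Levels between genes were compared per kilobase of merged exons. In the controls Ly6d was the highest marker at 4.49 ± 1.78 CPM per kilobase (SD, n = 4), followed by Afp at 1.59 ± 0.524 and Golm1 at 1.32 ± 0.525, whose ranges overlapped. Next came Sox4 at 0.636 ± 0.123 and Gpc3 at 0.491 ± 0.353, which also overlapped, then Igf2bp2 at 0.229 ± 0.12 and Igf2bp3 at 0.181 ± 0.0488. Igf2bp1 was at 0.0247 ± 0.0121 and Lin28b at 0.00541 ± 0.00664. Of neighbors in this order, the ranges did not overlap between Ly6d and Afp, Golm1 and Sox4, or Igf2bp3 and Igf2bp1, and overlapped for the rest. In the DKO tumors Ly6d was at 23.2 ± 21.7 and Afp at 20.3 ± 20.4 CPM per kilobase, with overlapping ranges. For scale, Alb was at 45700 ± 11100 CPM per kilobase in the controls, so Afp stayed far below albumin also in DKO 4, at 49.9.

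For the 4 tested markers that varied most, the 3 genes with the nearest pattern were named by the root mean square difference of centred log2 CPM over the 12 libraries. Nearest to Afp were Wfdc3, a gene of the WAP domain family (0.585), Phlda2, an imprinted gene that limits placental growth (0.654), and Prom1, which encodes the progenitor surface protein CD133 (0.748). Phlda2 was at 1.61, 1.27, 0.887 and 4.25 CPM in the DKO tumors and at most 0.497 CPM elsewhere. Prom1 was at 63.5, 28.5, 10.5 and 50.4 CPM in the DKO tumors, 8.98, 7.75, 1.84 and 3.88 CPM in the TKO tumors and 1.97 to 3.56 CPM in the controls. Both had their DKO tumors above all other libraries, which Afp did not, since TKO 2 exceeded DKO 3.

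Nearest to Golm1 were Pygo1, a Wnt pathway coactivator (0.412), Fam81a (0.454) and Spink1, a secreted trypsin inhibitor of fetal and tumor tissue (0.458). Fam81a was at 13.5, 8.86, 8.46 and 2.42 CPM in DKO and 13.2, 12.5, 1.38 and 1.27 CPM in TKO, high in the same 5 tumors as Golm1. Nearest to Ly6d were Ly6c1 (0.574), Syt12 (0.611) and the homeobox gene Meox1 (0.631). Ly6c1 lies 281449 bases from Ly6d in mm9. Nearest to Gpc3 were Mst1r, a receptor tyrosine kinase (0.820), Tmem119 (0.903) and the growth factor Tgfb3 (1.03), at larger distances than for the other markers. These genes were chosen for likeness in the same libraries, so their levels are a description.

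**Figure D4:**
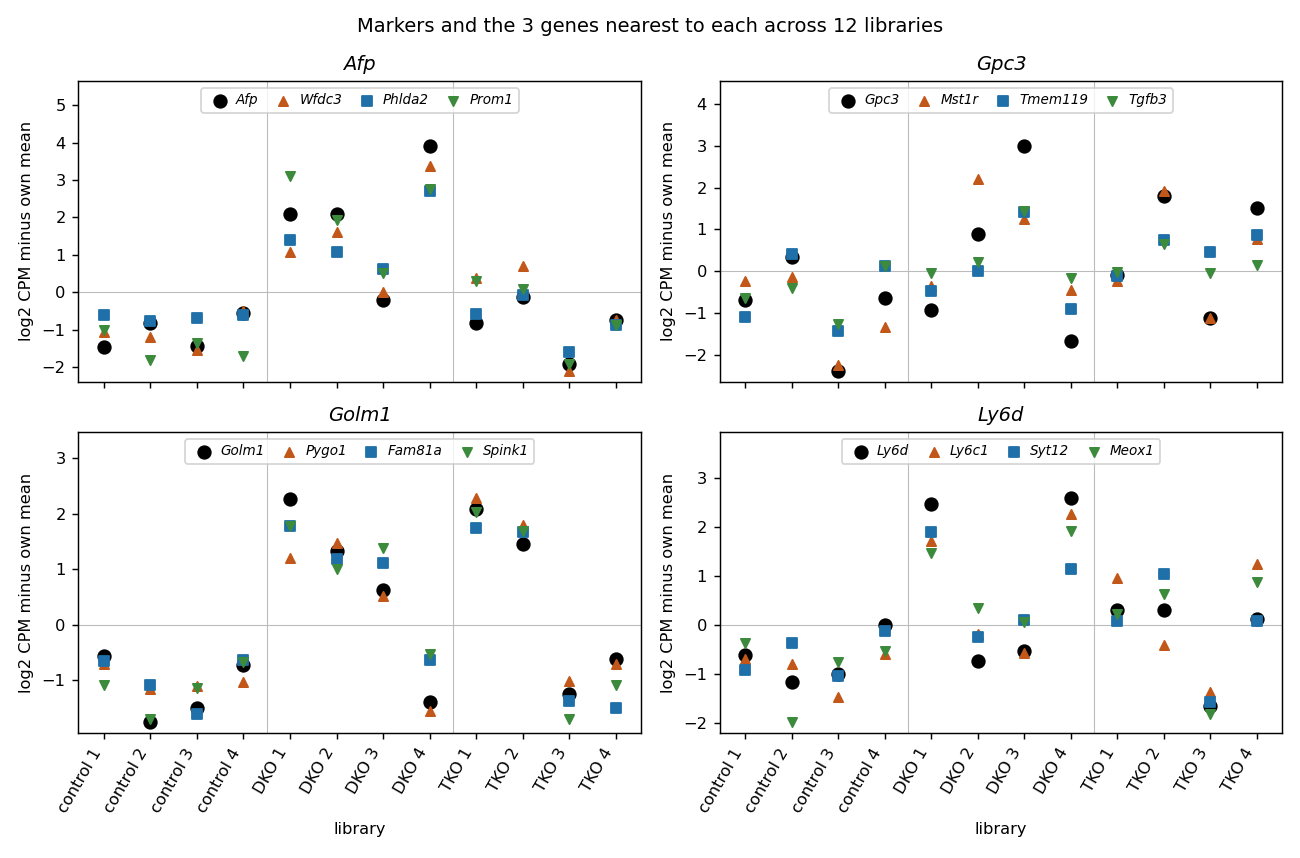
Log2 CPM minus each gene's own mean over the 12 libraries (vertical axis) by library (horizontal axis) for Afp, Gpc3, Golm1 and Ly6d (black circles) and the 3 genes nearest to each (colored symbols), with lines between the control, DKO and TKO groups. The Afp genes are highest in DKO 1, 2 and 4, while in DKO 3 Afp is at -0.203 and Wfdc3 at 0.0049. The Golm1 genes are high in DKO 1 to 3 and TKO 1 and 2. The Ly6d genes are highest in DKO 1 and DKO 4, with Ly6c1 also at 1.24 in TKO 4 and Syt12 at 1.04 in TKO 2. The Gpc3 panel has the widest scatter.

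Of 16 other genes of the fetal liver 13 were tested, and edgeR called 3 higher in the DKO tumors (1.41% of all genes were) and 0 lower, with a median log2 change of 1.00 against 0.02 over all genes. These were Lpl, Scd2, a fatty acid desaturase of the embryo, and Tspan8, a tetraspanin of digestive tumors. Scd2 was at 193, 288, 94.6 and 771 CPM in DKO against 38.5 to 64.7 CPM in controls, and its change was 2.63 (adjusted p 0.0486). It was highest in DKO 4, as Afp was. Tspan8 was at 54.1, 70.5, 24.9 and 26.1 CPM in DKO, above every control (2.83 to 14.3 CPM) and every TKO tumor (3.14 to 12.2 CPM), with a change of 2.47 (adjusted p 0.0426). Without the 4 libraries with high Igf2 the changes of Scd2 and Tspan8 were 2.53 and 1.91 (adjusted p 0.253 and 0.210), so neither was called. The TKO minus DKO difference of Tspan8 was -2.38 (edgeR adjusted p 0.281, DESeq2 0.00290).

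In the TKO tumors edgeR called 0 of these 13, with a median of 0.88, and DESeq2 called 2 (3.32% of all genes were called). In edgeR 4 had an unadjusted p under 0.05, against 16.3% of all genes. Meg3, an imprinted noncoding RNA of the Dlk1 region, was at 172 CPM in TKO 4 and between 0.904 and 4.10 CPM in the other 11 libraries. Its change in TKO was 3.87 (adjusted p 0.205), and no other TKO tumor was above the highest control. Dlk1, its fetal neighbor gene, was at most 0.414 CPM in any library. Spink1 was above every control in 6 of 8 tumors, at up to 1.75 CPM against at most 0.146 CPM in controls, with edgeR changes of 3.31 in DKO and 3.22 in TKO (adjusted p 0.122 and 0.221). The lowest values of the list in both tumor groups together were -1.79 for Igf2 and -0.56 for Cdkn1c, an inhibitor of the cell cycle (adjusted p 0.396 and 0.463). Without the 4 libraries, which were set apart by high Igf2 itself, the Igf2 value was 0.63.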

How the data were processed

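RNA from 12 mouse liver or tumor pieces was sequenced as poly(A) libraries on a SOLiD instrument. BWA (mapping to mm9) and FeatureCounts (reads per gene) were used by the authors, whose deposited table holds whole-number counts with no normalization. Tool versions, strand setting and treatment of multiply mapped reads are not given in the sources used here, so overlapping genes and near-identical Ly6 family copies are uncertain. Groups and replicate numbers come from the labels, and same-numbered libraries are different mice. Symbols from GRCm38.p6 matched 24191 identifiers, which held 99.4% of counts. Coordinates are GENCODE vM1 positions in mm9.

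Genes were compared with edgeR 4.0.16 in R 4.3.3 (TMM factors, filterByExpr, 1 mean per group over all 12 libraries, quasi-likelihood test, Benjamini-Hochberg adjustment over 13882 genes, threshold 0.05). The comparison of both tumor groups sets the average of the DKO and TKO means against the control mean. Log2 CPM used a prior count of 2. DESeq2 1.42.0 and limma 3.58.1 (voom with quality weights) were alternatives, as were DESeq2's size factors, library totals alone, a minimum of 10 counts in each library, dropping the filter, edgeR's newer dispersion estimate, a covariate from sex-linked genes, fitting only the libraries compared, blocking on the replicate number, an adjusted p of 0.1, a prior count of 0.5 and leaving out each library. Leaving out the 4 libraries with high Igf2, or a term for them (also for Igf2, Lpl, Scd2, Tspan8 and Ezh2), was added after the data were seen. On simulated counts for 13882 genes with 200 changed, the test of DKO against control recovered 97.0% with 5.37% false calls. The changed genes were drawn from those of higher level and low spread between libraries, and were given large changes. The recovered share therefore does not carry over to markers that are low or vary much between libraries. The counts of all 18 pairs of libraries within a group differed by more than sampling noise.

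The markers and gene lists were chosen with earlier results of these data known. Named were all 9 markers, Rb1, E2f7 and E2f8, called genes of each list with up to 2 of its largest and smallest changes, and the 3 nearest tested genes of each marker with an SD over 1 in log2 CPM. Marker genes of other cell types and Alb, Zhx2, Zbtb20, Gpc4, Lin28a, Dlk1, Krt14 and Epcam were named beyond this rule, after their values were seen. A further listed gene is not reported here. Intervals are not given for single counts, and the allowance of 3 counts for a count of 0 covers counting error only. The labels do not state that each library of a group is a separate mouse, and the authors report 4 livers per condition. The p-values set differences of group means against the spread between these libraries.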

Additional observations from a re-analysis of the deposited data

Results flagged for a closer look

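Of the 21 sets of 4 libraries tested for a library far from the rest (7 markers in each of 3 groups), 1 had one. Ly6d in TKO 3, at 1.46 CPM, was far below the other TKO tumors at 6.09, 6.04 and 5.30 CPM. Its gap to the nearest of them was 0.9 of the range of the group on the log2 scale, above the limit of Dixon's test at the 95% level. Chance alone sets apart about 1 in 20 such groups.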

How the results depend on the processing

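Of 681 marker changes recomputed under an alternative, 638 kept their direction and their side of the threshold, 11 lost a call, 12 gained one and 20 turned direction. In DKO against control the markers called were 3 with DESeq2, 2 at an adjusted p of 0.1, 0 with the sex-linked covariate (Afp 3.73), 0 without the 4 libraries with high Igf2, 0 with a term for them, and 0 to 1 with a library left out. Over those left out, the Afp change ran from 2.72 to 4.05. In TKO against control the number was 0 throughout. In TKO against DKO it was 1 with DESeq2 and 0 with every other tool or setting run. Over both tumor groups it was 3 with DESeq2, 1 with voom, 2 at an adjusted p of 0.1, and 0 to 1 with a library left out (Afp without DKO 3, adjusted p 0.0396, or Sox4 without TKO 3). The share of all genes was not set beside the counts with voom or at an adjusted p of 0.1. Turned directions were all in changes that were not called. Igf2bp3 in DKO was 0.25 without the 4 libraries, 0.10 with a term for them, and -0.32 to 0.06 with a library left out. With a library left out, Afp in TKO ran from -0.05 to 0.51, Igf2bp3 in TKO from -0.07 to 0.44 and over both groups from -0.09 to 0.18. In TKO minus DKO, Gpc3 was 0.11 with voom and -0.94 to 1.18 with a library left out. Golm1 there was 0.53 with the sex-linked covariate, 0.10 without the 4 libraries and -0.86 to 0.47 with a library left out, and Sox4 ran from -0.26 to 0.46. Igf2 in DKO turned from -3.20 to 1.84 without the 4 libraries and 1.90 with a term for them, over both groups from -1.79 to 0.63 and 0.73, and in TKO minus DKO from 2.81 to -2.41 and -2.34. The 4 libraries were set apart by their high Igf2, so for Igf2 itself these turns follow from that choice. The causes of the other turns were not tested.

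The number of genes called in all went from 336 in DKO against control to 0 to 1804 under the alternatives, from 12 to 0 to 498 in TKO, from 0 to 0 to 56 in TKO against DKO and from 344 to 2 to 1813 over both groups, apart from single libraries left out. With a library left out it was 0 to 651 in DKO, 0 to 231 in TKO, 0 in TKO against DKO and 0 to 1019 over both groups. Same-numbered libraries did not deviate together throughout (r from -0.174 to 0.37 over 12 pairs, 5 above 0.1). The highest were DKO 3 with TKO 3 (0.37) and DKO 4 with TKO 4 (0.342). These values do not decide whether the numbers pair some of the libraries. With the replicate number as a block, 1 marker was called in DKO against control and 0 in the other comparisons, as without it, and the genes called in DKO went from 336 to 509. A prior count of 0.5 moved 6 of 27 group means of log2 CPM by more than 1 SD. At least 10 counts in every library left 4 of the markers. The both-tumor comparison has no version restricted to its own libraries, since it uses all 12. Depth limits Igf2bp1 and Lin28b, which had at most 5 counts in a library, and Igf2bp3, at most 20.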
